A study of Homo sapiens with 34 samples.

Results

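The mitochondrial ribosomal protein genes were taken as all protein-coding genes in RefSeq's table of GRCh38.p14 whose symbol begins with MRPL or MRPS followed by a digit. The rule found 77 of 19974 genes, 49 with an MRPL symbol, named for the large subunit, and 28 with an MRPS symbol, named for the small one. Symbol and subunit do not always match: MRPS18A and MRPS30 code for proteins of the large subunit. The 77 genes were examined in DLD1, a human colorectal adenocarcinoma line that carries a tetracycline-inducible dominant negative TCF7L2. TCF7L2 is a transcription factor through which β-catenin acts on Wnt target genes. The uninduced group received no doxycycline and the induced group 1 µg/mL of it for 24 h; both groups carry the transgene, and no group given doxycycline without it was analysed here. Chromatin was immunoprecipitated for the H3K27 acetylation (H3K27ac) that marks active regulatory DNA or for Pol II, the RNA polymerase that transcribes protein-coding genes, with 2 samples for each antibody and condition and 1 input sample per condition. Another 24 samples, all RNA-seq, were not analysed here.

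The labels tie 1 list of enriched regions to both samples of a group, so 4 lists stood side by side. The spread between replicates is therefore not known, and every difference given here is without a test. The 2 Pol II lists differed in size: 57247 regions spanning 70.9 Mb uninduced, and 50665 spanning 56.7 Mb induced. The H3K27ac lists were closer, at 136.6 Mb uninduced and 132.6 Mb induced. A lower Pol II coverage of a gene in the induced list therefore has to be read beside the same measure over all genes. Of 10 epithelial markers, 6 stood in the top 10% of genes by Pol II summit in each condition, among them KRT8, KRT19 and CDH1, while VIL1 stood at 8.26 and 5.99 of 100 and CDX1 had no Pol II summit uninduced and a place of 4.45 induced. None of the immune, stromal, endothelial, liver, muscle and neuron markers did, and LYZ, COL1A2, LUM, DCN, ALB, MYH1 and SNAP25 were among those with no Pol II region within 1 kb in either list. The highest of them were CD68, at 62.9 and 62.1, and SYP, at 57.3 and 62.7.

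Mitochondria make a small set of respiratory chain subunits on their own ribosome, whose RNA is encoded in mitochondrial DNA and whose proteins are all encoded in the nucleus, made in the cytosol and imported. Some of these proteins have bacterial counterparts, such as those of the decoding centre and the GTPase stalk, and others exist only in mitochondria, many of them in the central protuberance or near the polypeptide exit tunnel. Expression of the set in these cells was not examined here. Tetracyclines such as doxycycline bind bacterial ribosomes and can block mitochondrial translation as well, so the agent that induces the transgene also bears on this ribosome. That action and the action of the transgene cannot be told apart in these groups.

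Every one of the 77 genes carried enrichment of both marks in the gene or within 1 kb of it. With summits inside the gene alone, 69 had a Pol II summit and 77 an H3K27ac summit in 1 or both lists of the mark. All 77 had a Pol II summit and an H3K27ac summit inside the gene or within 1 kb of it in all 4 lists, against a background of 68.3% of protein-coding genes. Of the 91 genes of the cytosolic ribosome, 89 did. No member was found in one condition alone. The members were short, with a median length of 8618 bp against 24171 bp over all genes, and ranged from 677 bp (MRPL41) to 111543 bp. Of the 77, 44 had another protein-coding gene within 1 kb, which was 57.1% against 39.0% of all genes.

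Coverage, the share of the gene body (in percent of its length) under regions of a list, was scored where a gene spanned at least 2 kb and 1 or both lists of a mark reached into it. This left 73 members, since MRPL41, MRPL51, MRPL53 and MRPS34 were shorter. Median Pol II coverage of the 73 was 15.1% in the uninduced list and 12.5% in the induced list. Over all 14091 scored genes the medians were 4.96% and 3.91%. In the induced list 59 members had lower coverage, 13 higher and 1 the same, and the lower share, 80.8%, lay close to the 77.9% of all scored genes.

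The median of the members' differences in Pol II coverage (induced minus uninduced) was -1.28 percentage points, against -0.51 points over all scored genes. A difference was counted when it lay more than 10 points from that median of all genes. By this limit 7 members were lower in the induced list, 9.59% of the 73 against 6.42% of all scored genes. No member was higher by the limit, and 0.419% of all scored genes were. The comparison with all genes moved with gene length. Among genes of 2 to 5 kb, 11.1% of the members were lower by the limit against 22.2% of all genes; among those of 5 to 15 kb the shares were 16.7% and 15.3%; and among longer genes they were 0 of 25 members against 2.19%. The members' count was thus not above that of genes of like length in 2 of the 3 length classes, and was near it in the other.

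**Figure D1:**
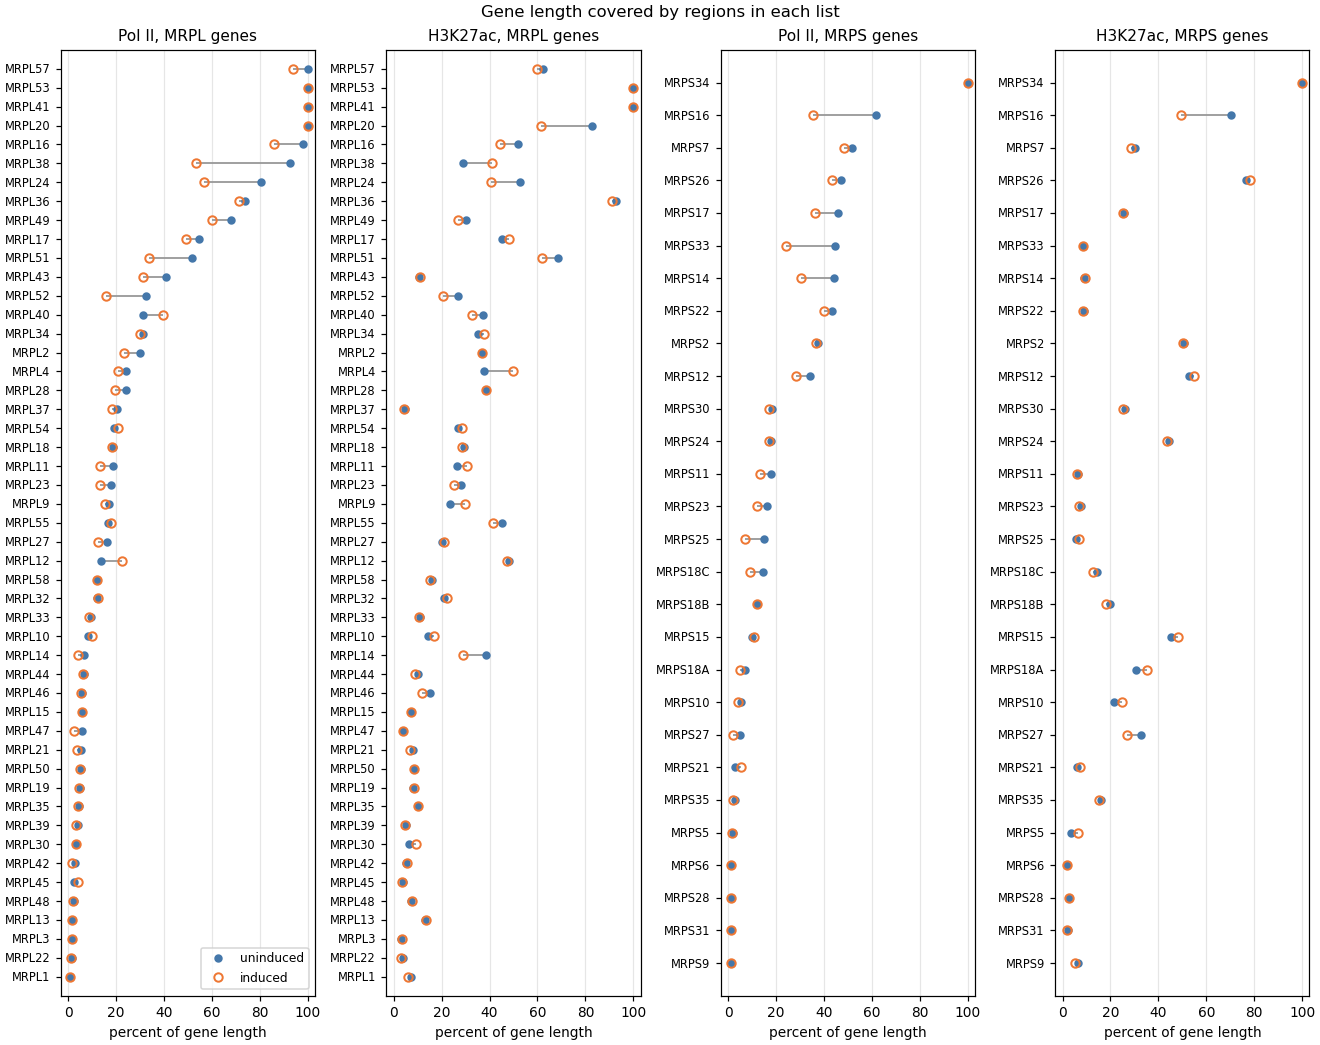
Percent of gene length under Pol II or H3K27ac regions (horizontal axis) for each of the 49 MRPL and 28 MRPS genes, with filled points for the uninduced list, open points for the induced list and a line joining them; each point is 1 list that serves 2 samples. Genes are ordered by uninduced Pol II coverage, and most pairs of points lie close together, with MRPL38, MRPS16, MRPL24 and MRPS33 the widest Pol II pairs.

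**Figure D2:**
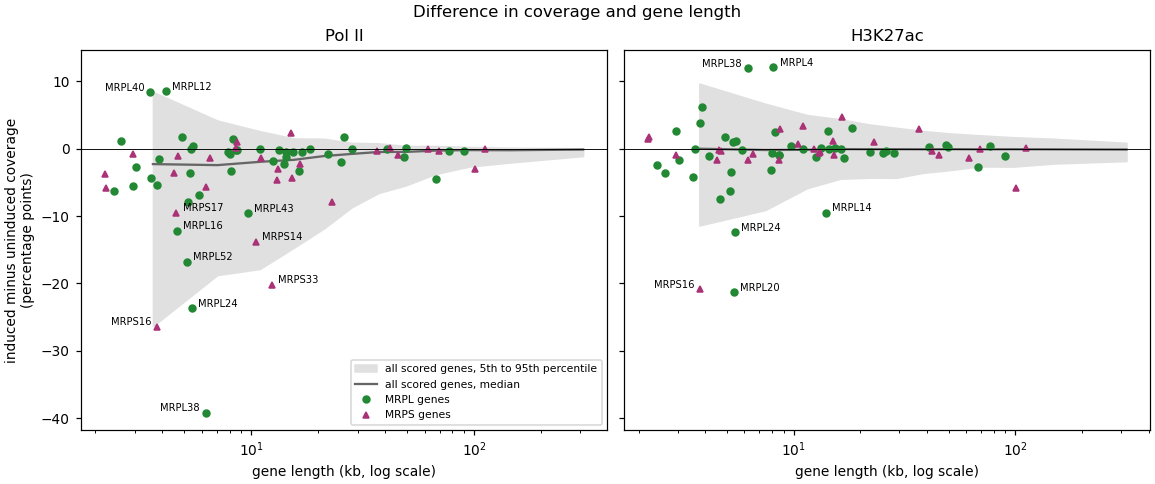
Induced minus uninduced coverage in percentage points (vertical axis) against gene length in kb on a log axis, for the 73 scored members (circles MRPL, triangles MRPS), over the median (line) and the 5th to 95th percentile (grey) of all scored genes in 12 length bins, drawn from the median length of the first bin to that of the last. For Pol II the grey range is widest for short genes, and MRPL38 lies furthest below it.

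The widest Pol II difference was at MRPL38, a protein of the central protuberance with no bacterial counterpart, on chromosome 17 at 75898644-75904884. Its Pol II coverage was 92.5% in the uninduced list and 53.3% in the induced list, a difference of -39.2 points. Without regions below a -log10 q of 5 the induced coverage was 23.01% and the difference -69.5 points. In the uninduced list 2 long regions, of 2651 bp over the promoter and of 9069 bp over the rest of the gene and beyond its 3′ end, covered nearly all of it. In the induced list the promoter region was 2154 bp long, a region of 3475 bp lay at the 3′ end, and the interior held 4 short regions of 266 to 810 bp with a fold enrichment of 2.88 to 3.92. The strongest promoter summit was present in both lists, at a fold enrichment (the authors' value over the caller's local background) of 24.4 uninduced and 19.0 induced.

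MRPS16, a small-subunit protein with a bacterial counterpart whose loss causes a mitochondrial disease, showed the next widest difference. Its coverage was 61.7% uninduced and 35.2% induced, -26.4 points. The uninduced promoter region was 2340 bp long and the induced one 1861 bp. Behind it a region of 891 bp with a fold of 3.85 stood in the uninduced list, and one of 296 bp with a fold of 2.78 in the induced list. MRPL24, a large-subunit protein that lies near the exit tunnel, was covered to 80.6% uninduced and 56.9% induced. With the gene cut into 4 parts of equal length from its 5′ end, part 3 was covered to 100% uninduced and to 23.6% induced, while part 4 was covered to 90.6% and 96.1%.

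MRPS33 and MRPL52, both specific to mitochondria, and MRPS14, a protein of the small subunit's head with a bacterial counterpart, came next. MRPS33 was covered to 44.5% uninduced and 24.3% induced, and its 4 regions between 141006431 and 141012390 of chromosome 7, with folds of 2.47 to 3.20, had no counterpart in the induced list. That difference rested on weak regions: when regions below a -log10 q of 5 were left out it was -6.81 points rather than -20.2. MRPL52 was covered to 32.5% and 15.7%, or to 21.3% and 10.3% without those regions. MRPS14 was covered to 44.1% and 30.3%, or to 44.1% and 20.7% with the 40000 strongest regions of each list. MRPL16, a large-subunit protein with a bacterial counterpart, was the other gene past the limit, at 97.9% and 85.7%. In each of these 7 genes a Pol II region over the listed start stood in both lists, and what differed was mainly how much of the gene behind it was covered.

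The members with higher Pol II coverage in the induced list differed by less. MRPL12, the stalk protein through which translation factors are recruited, was covered to 13.9% uninduced and 22.4% induced. Its strongest Pol II region lay mostly before the gene, at 81695546-81703943 uninduced and 81695117-81704227 induced, with the gene's start at 81703367. MRPL40, a central protuberance protein, was covered to 31.2% and 39.6%; its single Pol II region was 2601 bp long uninduced and 3155 bp induced. Neither passed 10 points from the median. MRPS21, MRPL54, MRPL45 and MRPL10 completed the 6 highest, with differences of 2.38, 1.74, 1.67 and 1.49 points. MRPL45, which anchors the ribosome at the inner membrane, thus stood at 2.37% and 4.04% (2.37% and 2.44% without regions below a -log10 q of 5), and MRPL10, at the base of the stalk, at 8.38% and 9.87%.

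By position along the gene, Pol II regions sat mainly at the 5′ end and again at and past the 3′ end. Over the 65 scored members with a known strand, the mean coverage of the 1 kb before the gene was 71.1% uninduced and 68.2% induced. That of part 1, the first of 4 equal parts, was 43.3% uninduced and 41.7% induced. Part 2 had 16.01% and 11.6%, part 3 16.5% and 10.6%, part 4 25.3% and 21.5%, and the 2 kb past the 3′ end 46.9% and 41.5%. Thus the mean difference was -1.52 points in part 1 and -5.86 points in part 3. Over all 11470 scored genes with a known strand the same differences were -2.08 points in part 1 and -2.02 points in part 3. Over 64 cytosolic ribosomal protein genes they were -3.79 and -5.98 points. None of these means was compared with genes of like length. The members' means of parts 2 and 3 rested on few genes, since only 19 and 18 of the 65 members had any Pol II region in part 2 and part 3.

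Of those 18 members with Pol II in part 3, 15 had lower coverage of it in the induced list, 1 had higher, and 5 had it in the uninduced list alone. Over all genes, 2637 of 3687 with Pol II in part 3 had lower coverage of it, 689 higher, and 711 had it in the uninduced list alone. Sorted by pattern, 28 of the 65 members had Pol II in part 1 alone in the uninduced list and 30 in the induced list. Pol II in parts 1 and 4 with nothing between was found in 11 and 15, and Pol II in part 1 and the interior in 25 and 19. These patterns were counted in the members alone, without the share over all genes, and the induced Pol II list is the smaller one. H3K27ac regions were likewise highest before the gene, at 83.5% uninduced and 84.9% induced, and in part 1. Unlike Pol II, they stayed low from part 3 on and in the 2 kb past the 3′ end, at 11.4% and 11.1%. Part 1 was covered to 58.8% in both lists, with a mean difference of -0.02 points.

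**Figure D3:**
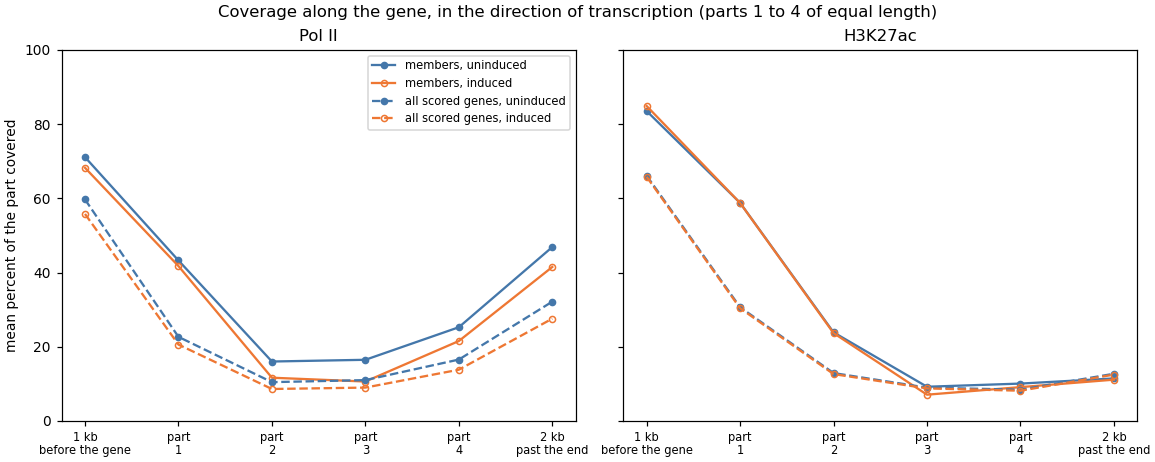
Mean percent of each part of the gene covered by regions (vertical axis) from 1 kb before the gene to 2 kb past its end, with the gene in 4 parts of equal length, for the 65 scored members with a known strand (solid) and all scored genes with a known strand (dashed), uninduced (blue, filled) and induced (orange, open). The members' Pol II lines lie furthest apart in part 3, at 16.5% uninduced and 10.6% induced, while their H3K27ac lines nearly coincide in part 1.

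H3K27ac coverage of the members was near equal in both lists. The median over 73 members was 19.97% uninduced and 18.3% induced, and the median difference was -0.29 points against -0.08 over the 14626 scored genes. It was lower in the induced list for 43 members, higher for 29 and the same for 1. The lower share, 58.9%, lay close to the 55.8% of all scored genes. By the 10-point limit 3 members were lower (4.11%, against 1.11% of all scored genes) and 2 were higher (background 0.786%). By length class the lower shares were 5.56% of members against 5.85% of all genes at 2 to 5 kb, 6.67% against 2.49% at 5 to 15 kb, where 2 members were counted, and 0 against 0.272% of longer genes.

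The 3 lower were MRPL20, MRPS16 and MRPL24. MRPL20, an early-assembling protein in the bacterial ribosome, was covered by H3K27ac to 82.7% uninduced and 61.4% induced, but the sign depended on the region set, since it was higher by 4.57 points when the 40000 strongest regions of each list were used. MRPS16 was covered to 70.2% and 49.3%, but here too the sign turned, to 48.1% and 49.3% without regions below a -log10 q of 5 and to 40.7% and 49.3% with the 40000 strongest. MRPL24 was covered to 52.8% and 40.4%, and was the member lower by the limit in both marks with all regions and with either of those sets. MRPL14, which lies at the face between the subunits, had a difference of -9.499 points, just inside the limit, and of -5.74 and -17.6 points under those 2 region sets.

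The 2 higher in H3K27ac were MRPL4, with 37.9% uninduced and 49.96% induced, and MRPL38, with 28.95% and 40.9%. Without regions below a -log10 q of 5, MRPL4 stood at 37.9% and 45.1%, under the limit. Both code for large-subunit proteins, MRPL4 for one with a bacterial counterpart. MRPL38 was thus the gene with the widest lower difference in Pol II coverage and one of the widest higher differences in H3K27ac coverage. Its single H3K27ac region, over the promoter, was 4022 bp long uninduced and 4880 bp induced. MRPL9 and MRPS18A followed with differences of 6.18 and 4.70 points, the latter -0.084 with the 40000 strongest regions.

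To place the genes by the strength of their strongest summit, each gene was ranked by the highest -log10 q within it or 1 kb of it among the genes with a summit in either list, so that 100 is the highest place. The places are within a list and show no change between lists. The members' median place by Pol II was 62.1 uninduced and 59.0 induced. By H3K27ac it was 48.0 and 47.4, about the middle of the list. For the cytosolic ribosomal protein genes the Pol II medians were 88.5 and 87.8 and the H3K27ac medians 67.2 and 66.0.

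In the top 10% by Pol II were 11 of the 77 members uninduced (14.3%, background 10.0%) and 9 induced (11.7%, background 10.0%). In the top 10% by H3K27ac were 5 uninduced (6.49%, background 10.0%) and 4 induced (5.19%, background 10.0%). The Pol II shares lay a little above the background and the H3K27ac shares below it, each on few genes. By contrast, 43 and 42 of 89 cytosolic ribosomal protein genes stood in the top 10% by Pol II. By symbol, the median Pol II place was 59.7 and 57.3 for the MRPL genes and 62.8 and 68.1 for the MRPS genes.

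The highest Pol II places of the uninduced list were those of MRPL53, MRPS6, MRPL57, MRPS27 and MRPS5. MRPL53, a mitochondria-specific protein of the stalk region, stood at 98.3 uninduced and 98.7 induced, with a fold of 41.2 and 40.9 at a summit at -9 and -15 bp from its start. That summit also lay within 1 kb of CCDC142. MRPS6, which has a bacterial counterpart, had the highest fold of the 77, 47.9 uninduced, at place 95.3, and a fold of 33.0 at place 83.6 induced; its summit also lay within 1 kb of SLC5A3. MRPS5, next to the messenger channel of the small subunit, stood at 93.7 and 81.2.

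Not every member had its strongest Pol II summit at the start. In MRPL20 it lay 5796 bp past the start uninduced and at -71 bp induced. MRPS27 is a small-subunit protein with pentatricopeptide repeats. Its strongest Pol II summit was not at its start but 11951 bp inside the gene uninduced and 11960 bp inside it induced, in a region of 1740 bp at chr5:72307052-72308791 in the uninduced list with a fold of 40.8. The region at its start had a fold of 36.0 uninduced and 35.7 induced. Its strongest H3K27ac summit lay further in, about 88 kb from the start (88022 bp uninduced and 88023 bp induced), in a region of 12328 bp uninduced and 5294 bp induced. By H3K27ac it stood at 88.0 and 52.0.

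The lowest Pol II places of the uninduced list were those of MRPL23, at 17.7 uninduced and 21.1 induced, MRPL11, at 20.1 and 25.6, and MRPL43, at 29.98 and 32.99. MRPL11 belongs to the GTPase-associated centre and MRPL23 to the rim of the exit tunnel, and their folds were 10.8 and 9.27 uninduced. By H3K27ac MRPL23 stood second of the members uninduced, at 97.3, and first induced, at 98.8. The lowest by H3K27ac were MRPS21, at 12.04 and 12.65, MRPS14 at 18.8 and 25.3 and MRPS31 at 22.3 and 21.3. The order by one mark was thus related only loosely to the order by the other: Spearman's rho over the 77 members was 0.46 uninduced and 0.41 induced, against 0.57 and 0.60 over 14094 genes, as a description over genes that share libraries.

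Places differed most between the lists for MRPL33 (Pol II 73.9 uninduced, 42.5 induced), MRPL12 (74.6 and 58.2), MRPL10 (72.1 and 57.3) and MRPL44 (58.5 and 43.8) in one direction. In the other they differed most for MRPL21 (63.05 and 87.4), MRPS35 (63.0 and 84.9), MRPL35 (59.7 and 79.5) and MRPS18C (57.8 and 77.1). MRPL12 thus had the highest Pol II coverage difference of the members and a lower place in the induced list. By H3K27ac the widest were MRPS27, MRPL40 (99.2 and 69.0), MRPL52 (64.4 and 42.1) and MRPS5 (62.7 and 43.5) in one direction, and MRPL38 (43.7 and 66.9), MRPS26 (61.5 and 82.6), MRPS2 (55.7 and 76.6) and MRPS35 (56.1 and 75.5) in the other. Many members' strongest summits also lay in or near another gene. For Pol II, the summit of 34 members uninduced and 33 induced lay within another protein-coding gene or 1 kb of it. Examples are HIRA for MRPL40, IGHMBP2 for MRPL21 and LRRC46 for MRPL10. Such a summit cannot be assigned to either gene, and whether it marks a shared promoter was not tested. The count was not taken over all genes, of which 39.0% have another gene within 1 kb, against 57.1% of the members.

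**Figure D4:**
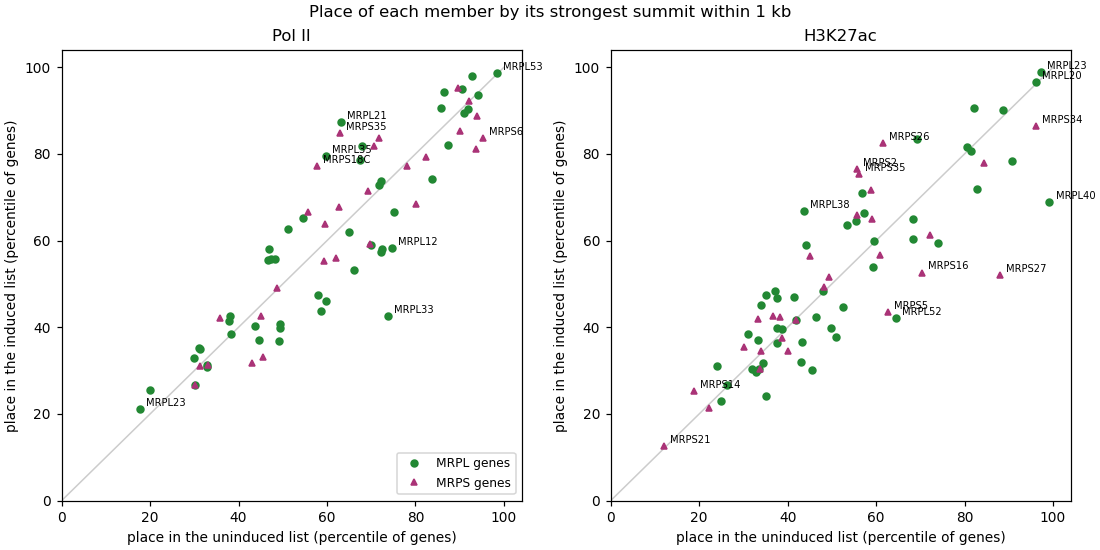
Place of each member among all genes with a summit (percentile, 100 highest) by its strongest summit within 1 kb, uninduced list (horizontal) against induced list (vertical), for Pol II and H3K27ac; circles are MRPL and triangles MRPS genes, and the grey line marks equal places. Points spread from 17.7 to 98.3 for uninduced Pol II, and MRPL40 stands at 99.2 and 69.0 for H3K27ac.

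The start of transcription listed by RefSeq was matched for 69 of the 77 members (not for MRPL2, MRPL10, MRPL13, MRPL15, MRPL21, MRPL23, MRPL35 and MRPS28). For 64 of these it lay within 50 bp of the gene's 5′ end, and for MRPL14, MRPL24, MRPL36, MRPL39 and MRPL44 further inside the gene. The window from 250 bases before to 50 after the start lay wholly under Pol II regions in 69 of 69 members uninduced and 68 induced, the exception being MRPS22, against 58.1% and 56.4% of 15812 genes. The strongest Pol II summit lay a median 31 bp past the start uninduced and 32 bp induced. It was within 200 bp of the start for 58 and 59 of 69 members (84.1% and 85.5%), against 55.7% and 55.4% of all genes with a summit. For cytosolic ribosomal protein genes the share was 77.1% in both lists. H3K27ac summits lay further downstream, at medians of 239 and 231 bp.

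Divergent neighbours were frequent near the members' starts, but whether a promoter was shared was not tested. Of the 69 members 18 had such a neighbour (26.1%). The shares were 10.2% of all genes, with or without Pol II, and 18.3% of cytosolic ribosomal protein genes. In the 18 members another gene's listed start lay within 1 kb on the opposite strand, facing away, at a median distance of 191.5 bp. In one such pair both genes are members: MRPS11 and MRPL46 start 320 bp apart and share their strongest summits of both marks in all 4 lists. Other pairs joined a member with a gene of protein synthesis or folding, namely MRPL49 with FAU, a cytosolic ribosomal protein gene, 49 bp apart, MRPS12 with SARS2, the mitochondrial seryl-tRNA synthetase, 181 bp apart, and MRPL18 with TCP1, a chaperonin subunit, 210 bp apart. MRPS12 is the decoding centre protein at which bacterial streptomycin resistance arises. Its Pol II fold was 35.2 uninduced and 26.1 induced near its start and that of SARS2.

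Short letter patterns known as sites of promoter-binding factors were searched in the same windows on both strands. The ETS core CCGGAAG, bound by GABPA among others, was found in 29 of 69 member windows (42.0%), against 14.1% of all windows and 21.6% of the 9191 windows that lay wholly under uninduced Pol II regions. The YY1 core AAGATGGCG was found in 13 (18.8%), against 2.69% and 4.37%. The NRF1 core GCATGCGC was found in 6 (8.70%), against 4.28% and 6.30%. At least 1 of the ETS and YY1 cores was in 38 windows and both were in 4. TATAAA was found in 2 windows (2.90%, against 9.75% of all and 4.95% of the covered windows) and the TCF letters CTTTGAT or CTTTGAA in 1 (1.45%, against 5.49% and 3.41%). CACGTG was in 10.1% against 8.82% and 10.6%, CCAAT in 28.99% against 36.4% and 37.5%, and GGGCGG in 59.4% against 58.3% and 74.6%. Of the 71 windows of cytosolic ribosomal protein genes, 32.4% held the ETS core and 8.45% the YY1 core. The patterns do not contain one another. A match is a description of the letters, not a bound site.

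**Figure D5:**
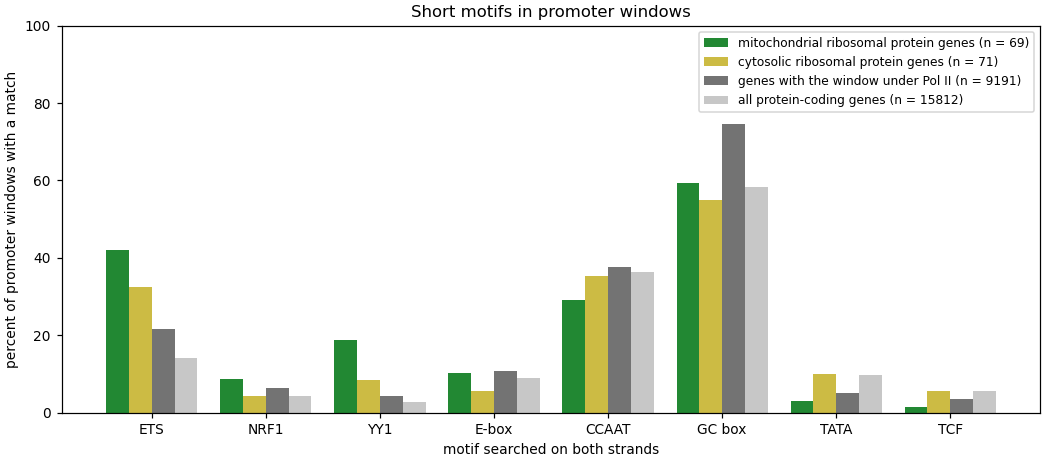
Percent of promoter windows (250 bases before to 50 after the listed start) that hold each motif on either strand, for the 69 members with a listed start, 71 cytosolic ribosomal protein genes, 9191 genes with the window wholly under uninduced Pol II regions and 15812 genes in all. The ETS bar of the members reaches 42.0% against 14.1% of all genes, and the YY1 bar 18.8% against 2.69%.

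Where a YY1 match was found it mostly lay close to the start, in the members as in other genes. In 11 of the 13 members with a match (84.6%, against 76.1% of all windows with YY1) the nearest one began within 50 bp of the start. Over every gene with a match its median position was 9 bases past the start in the members and 11.5 over all. For ETS the same held in 24 of 29 (82.8%, against 57.7% of all windows with ETS). In 9 members the YY1 letters, which contain ATG, ran in the direction of the gene and began 6 to 23 bases past the start, counting the start as 0. They are shown to let these promoters be compared, 5′ to 3′ along the gene from RefSeq's GRCh38.p14 sequence, with the YY1 core in capitals. Their positions and strands are MRPL38 at chr17:75904859-75904888 (minus), MRPL42 at chr12:93467512-93467541 (plus), MRPL46 at chr15:88467361-88467390 (minus), MRPL50 at chr9:101398576-101398605 (minus), MRPS10 at chr6:42217833-42217862 (minus), MRPS18A at chr6:43687763-43687792 (minus), MRPS18B at chr6:30617853-30617882 (plus), MRPS24 at chr7:43869479-43869508 (minus) and MRPS30 at chr5:44808950-44808979 (plus).
MRPL38: ggccggagggAAGATGGCGgcgccctggtg
MRPL42: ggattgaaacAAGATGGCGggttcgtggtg
MRPL46: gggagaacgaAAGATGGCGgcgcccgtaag
MRPL50: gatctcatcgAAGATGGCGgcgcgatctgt
MRPS10: cgggaccggcAAGATGGCGgcgcggacagc
MRPS18A: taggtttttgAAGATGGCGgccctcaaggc
MRPS18B: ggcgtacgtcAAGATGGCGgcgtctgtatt
MRPS24: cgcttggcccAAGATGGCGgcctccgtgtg
MRPS30: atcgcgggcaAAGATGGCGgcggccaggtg

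The promoter windows of 7 members at the ends of the rankings are shown next, again 5′ to 3′ along the gene, with ETS, YY1, NRF1 and CCAAT letters in capitals. MRPL38 (chr17:75904835-75905134 on the minus strand) and MRPS16 (chr10:73252595-73252894 on the minus strand) had the widest lower difference in Pol II coverage. In MRPL38 an ETS match began at -208 and the YY1 match at 6, counting the start as 0, and in MRPS16 an ETS match began at 5.
MRPL38: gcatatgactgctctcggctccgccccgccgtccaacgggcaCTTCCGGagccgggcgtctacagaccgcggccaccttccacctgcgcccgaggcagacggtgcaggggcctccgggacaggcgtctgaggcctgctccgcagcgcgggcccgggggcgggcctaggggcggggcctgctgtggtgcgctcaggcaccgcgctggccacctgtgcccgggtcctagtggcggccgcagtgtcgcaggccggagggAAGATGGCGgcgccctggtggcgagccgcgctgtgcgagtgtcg
MRPS16: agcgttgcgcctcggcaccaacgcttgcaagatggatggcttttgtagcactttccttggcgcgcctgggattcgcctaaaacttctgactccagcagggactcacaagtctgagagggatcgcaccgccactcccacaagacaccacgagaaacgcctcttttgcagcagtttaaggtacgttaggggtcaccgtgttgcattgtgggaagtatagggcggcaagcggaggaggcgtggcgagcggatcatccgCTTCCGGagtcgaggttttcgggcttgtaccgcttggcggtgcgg

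MRPL12 (chr17:81703117-81703416 on the plus strand) and MRPL40 (chr22:19432295-19432594 on the plus strand) had the highest differences in Pol II coverage. None of the 4 letter patterns was in the MRPL12 window. In MRPL40, which also had the highest H3K27ac place of the uninduced list, an ETS match began at -11.
MRPL12: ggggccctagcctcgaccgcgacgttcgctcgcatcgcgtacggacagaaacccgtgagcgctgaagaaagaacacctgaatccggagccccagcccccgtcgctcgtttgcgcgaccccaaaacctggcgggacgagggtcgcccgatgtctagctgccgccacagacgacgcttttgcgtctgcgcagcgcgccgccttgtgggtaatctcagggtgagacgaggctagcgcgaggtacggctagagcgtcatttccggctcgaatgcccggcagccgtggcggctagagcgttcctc
MRPL40: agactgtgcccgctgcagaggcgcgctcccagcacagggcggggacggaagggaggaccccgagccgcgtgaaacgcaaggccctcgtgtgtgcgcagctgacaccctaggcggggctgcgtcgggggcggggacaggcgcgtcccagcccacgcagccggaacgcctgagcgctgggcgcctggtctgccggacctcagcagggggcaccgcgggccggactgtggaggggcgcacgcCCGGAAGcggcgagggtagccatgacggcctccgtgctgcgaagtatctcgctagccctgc

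MRPL53 (chr2:74472631-74472930 on the minus strand) had the highest Pol II place. MRPL11 (chr11:66438799-66439098 on the minus strand) had the lowest among members with a listed start, and MRPS21 (chr1:150293611-150293910 on the plus strand) the lowest H3K27ac place. Matches of ETS began at -72 and 0 in MRPL53 and at -11 and 7 in MRPS21, which also held a CCAAT match on the other strand at -240; none was in MRPL11. An ETS match thus stood within 11 bases of the start in the window with the highest Pol II place and in the one with the lowest H3K27ac place.
MRPL53: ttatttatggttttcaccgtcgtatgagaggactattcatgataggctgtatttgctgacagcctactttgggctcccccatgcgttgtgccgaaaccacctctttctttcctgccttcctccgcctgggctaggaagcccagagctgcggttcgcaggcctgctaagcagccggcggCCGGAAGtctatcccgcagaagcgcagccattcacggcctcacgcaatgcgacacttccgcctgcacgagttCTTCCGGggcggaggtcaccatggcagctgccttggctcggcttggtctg
MRPL11: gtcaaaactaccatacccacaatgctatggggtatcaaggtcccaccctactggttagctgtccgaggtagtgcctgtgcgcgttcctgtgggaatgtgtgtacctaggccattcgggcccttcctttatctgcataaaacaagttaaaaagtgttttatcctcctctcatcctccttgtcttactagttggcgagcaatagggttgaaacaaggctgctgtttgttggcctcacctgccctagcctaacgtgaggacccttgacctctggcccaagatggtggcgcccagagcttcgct
MRPS21: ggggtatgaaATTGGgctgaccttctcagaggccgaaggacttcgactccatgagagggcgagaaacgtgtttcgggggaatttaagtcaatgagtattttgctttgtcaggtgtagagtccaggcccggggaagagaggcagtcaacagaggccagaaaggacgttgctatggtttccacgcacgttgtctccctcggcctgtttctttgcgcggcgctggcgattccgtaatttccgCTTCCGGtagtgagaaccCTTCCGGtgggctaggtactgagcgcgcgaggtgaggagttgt

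MRPS18A, MRPS18B and MRPS18C code for related proteins, of which the first belongs to the large subunit, as said. Their Pol II coverage was 7.25%, 12.1% and 14.6% uninduced and 4.95%, 12.1% and 9.005% induced. Without regions below a -log10 q of 5 the difference at MRPS18A turned from -2.29 to 0.470 points, and that at MRPS18C was -1.03 in place of -5.62. Their Pol II places were 45.1, 89.7 and 57.8 uninduced and 42.6, 95.2 and 77.1 induced. MRPS18B had the highest place in both lists, but its strongest summit lay upstream, at -628 and -646 bp from its start, within 1 kb of PPP1R10, whose start lies 597 bp away. The listed starts of MRPS18C and HELQ lie 175 bp apart. MRPL58, the peptidyl-tRNA hydrolase that frees stalled chains, stood at 70.0 and 59.0 by Pol II, with 12.02% and 11.89% coverage.

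Genes that work with the mitoribosome were described beside it from lists, with differences in Pol II coverage over 10 points from the median of all genes counted as above. Over all scored genes 77.9% were lower in the induced list and 6.42% lower by the limit. Of 5 mitoribosome proteins with other names, 3 were scored and none passed the limit in either direction. Of 27 genes of ribosome assembly and rRNA modification, 26 were lower in the induced list, 6 of them by the limit and none higher by it. MRM3, an rRNA methyltransferase of the large subunit, had 70.0% and 43.8%, MPV17L2 82.6% and 59.8%, and MALSU1 35.3% and 17.9%. Of 17 translation factors 3 were lower by the limit, MTRFR (67.0% and 48.0%), SLIRP (42.7% and 28.0%) and TUFM, the elongation factor Tu of mitochondria (100% and 88.3%). Of 17 mitochondrial tRNA synthetases 3 were, among them PARS2 (37.5% and 19.1%) and YARS2 (37.9% and 26.0%). Of 7 scored genes for transcription of mitochondrial DNA 1 was lower by the limit, MTERF2 (51.0% and 27.8%), and of 9 nuclear regulators of the set 1, ESRRA (75.6% and 60.1%). GABPA and YY1, the factors of the cores searched above, differed by 0.63 and -0.09 points. None of these lists had a gene higher by the limit.

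Of 16 genes of the integrated stress response, which mitochondrial translation block is known to switch on, 13 had lower Pol II coverage in the induced list, 2 higher and 1 the same, with 4 lower by the limit. The 81.3% with lower coverage lay near the 77.9% of all scored genes; 4 of 16 by the limit stands beside 6.42% of all. These 4 were PCK2 (82.9% and 40.2%), GDF15 (100% and 83.2%), TRIB3 (37.8% and 21.3%) and DDIT3 (100% and 86.7%). ATF4, a transcription factor that drives many of them, was covered to 100% in both. By place of the strongest Pol II summit, 14 of the 16 genes stood lower in the induced list and 2 higher. Their median place was 87.8 uninduced and 68.4 induced. Over all genes with a place, 7121 stood lower and 7498 higher. The cause was not tested. Of 10 mitochondrial chaperones and proteases 9 were lower in Pol II coverage, none by the limit, and HSPA9 was covered to 25.1% and 15.6%. By Pol II place 9 of the 10 stood lower in the induced list and 1 higher. Of 8 Wnt targets 4 were lower by the limit, against the same 6.42% of all scored genes, with AXIN2 at 92.0% and 68.7%. Of 83 scored cytosolic ribosomal protein genes 22 were lower by the limit (26.5%, against 6.42%). Another 6 were higher by it, against 0.419% of all scored genes, and 5 of these were among the 35 genes of 2 to 5 kb. Of all scored genes of that length, 43 of 1072 were higher by the limit. No list was compared with genes of like length here, apart from the ribosomal protein genes: of the cytosolic ones, 31.4% of those of 2 to 5 kb and 27.5% of those of 5 to 15 kb were lower by the limit, against 22.2% and 15.3% of all genes.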

How the data were processed

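Pol II and H3K27ac ChIP-seq of DLD1 cells were analysed, with 2 samples per antibody and condition (1 list of regions for both) and 1 input per condition. Per the labels' protocols, chromatin was sheared to 250 to 300 bp and each sample had 40 to 55M single-end 75 bp reads; the depth behind a region is unknown. The submitters' processing notes name, without role or order, deepTools 3.5.0, MACS2 2.1.1.20160309, BWA 0.7.17-r1188 and SAMtools 1.10. Not given in the sources used here were the caller's settings and any pooling of samples. The authors' lists hold per summit a fold enrichment (a ratio over local background) and a −log10 q, which begins at 1.30 as deposited. Both depend on depth and input, so they served to rank or describe within a list. Columns of per-sample values left unmatched numbered 0.

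The build is GRCh38 by extent: the last chromosome 17 region ends at 83228308. Regions on the 22 autosomes and X were kept, and overlapping regions were merged before coverage was taken. Genes, starts and promoter sequences came from RefSeq's GRCh38.p14 tables; where a gene has several starts the one nearest its outer 5′ end was used. Python 3.11.15, numpy 2.4.6 and pandas 2.3.3 were used, and the scripts were tested on simulated data. The members, lists and rules were chosen with earlier results of these data known. Named members are those at the ends of each ranking (6 per direction by Pol II and 4 by H3K27ac coverage difference, the 5 highest and 3 lowest uninduced places, the 4 places that differ most per direction) plus 7 set by name, 39 in all, and up to 3 genes per comparison list by Pol II coverage difference; other names were chosen after their values were seen. Some genes of the comparison and marker lists are not reported here. Alternatives used fewer regions, other limits, windows and rankings. Summits were taken from the 4 lists of regions, and separate summit lists and the RNA-seq samples were not used.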

Additional observations from a re-analysis of the deposited data

How the results depend on the processing

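Of 42 recomputed values, 24 stayed within 1.5 times the count (or close to the median) and 18 did not. With a limit of 25 points in place of 10, 2 members (MRPL38 and MRPS16) rather than 7 were lower in Pol II coverage, and 0 were lower and 0 higher in H3K27ac coverage; a wider limit leaves fewer by construction. The median Pol II difference was -0.757 points without regions below a −log10 q of 5 and -0.736 with the 40000 strongest regions of each list. Under both, 7 members were lower by the limit, 6 of them the same: MRPS33 left and MRPL43 entered. The H3K27ac median was -0.151 under both and with genes of any length, and under the first 2 settings 1 member, MRPL38, was higher in H3K27ac coverage. Ranked by fold enrichment, 7 members stood in the uninduced top 10% by Pol II and 3 in that by H3K27ac, and with summits inside the gene alone the counts were again 7 and 3. For the top 20% the counts were 18 uninduced and 20 induced for Pol II and 12 and 9 for H3K27ac, with a background of 20% by construction. Summits within 1 kb of the listed start, an alternative chosen after seeing the data, left each such count of the top 10% within 1.5 times. The cause of the other shifts was not tested.

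No paired analysis was possible because 1 list serves both samples of a group; for the same reason no sample was left out in turn. Depth, input and immunoprecipitation were not tested. A region below the caller's threshold in one list counts as uncovered there.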
